A study of Mus musculus with 6 samples.

Results

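Of the 17023 genes in the deposited gene table, 78 had a symbol starting with Kcn, the prefix that mouse nomenclature gives to potassium channel genes, and all 78 were taken as members by that prefix alone. They encode pore-forming subunits and the accessory proteins that assemble with them. All 78 had an entry in RefSeq, where each is protein coding. The cells were primary airway smooth muscle cells from lungs of wild-type mice, kept for 5 days in transwell plates and lysed for total RNA. In the co-culture group (n = 3) airway epithelial cells were present in the same plates, and in the control group (n = 3) they were not. The stated question of the study was the cause of a smooth muscle proliferation phenotype. Nothing in the labels ties a sample to its own culture or animal, so the p-values reflect only how far these samples differ from each other, a spread that may be technical.

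Potassium channels let potassium ions leave the cell down their gradient and so hold the membrane at negative voltage or return it there. Voltage-gated channels open on depolarisation, calcium-activated channels open when cytosolic calcium rises, inward rectifiers pass current mainly near the resting potential, and two-pore-domain channels carry background leak. In airway smooth muscle, potassium efflux opposes the depolarisation that opens calcium channels and drives contraction, and the large-conductance calcium-activated channel Kcnma1 is the best known member there.

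The 6 libraries held 17496056 to 18496623 estimated counts over genes. The control libraries carry the numbers 4 to 6 in the table. Control library 4 stood apart from control libraries 5 and 6: the chi-square per degree of freedom of its counts was 91.6 against library 5 and 99.9 against library 6, while libraries 5 and 6 gave 3.18 against each other and the co-culture pairs gave 3.98 to 6.51. Between groups, control libraries 5 and 6 gave 45.6 to 56.4 against the co-culture libraries, and control library 4 gave 110 to 121. Library 4 thus differed more from the other controls than those did from co-culture. The TMM scaling factor of library 4 was 0.886, and those of the other 5 libraries lay between 1.0005 and 1.0388. Of the smooth muscle markers, Acta2 stood at 47.0 to 78.9 CPM in co-culture, against 125 to 152 CPM in controls, and Myh11 at 0.827 to 0.962 CPM in co-culture, against 0.680 to 1.54 CPM in controls (CPM, counts per 1000000 of the scaled library). Cnn1, like Myh11 a marker of mature smooth muscle, stood at 0.321 to 0.552 CPM in co-culture, against 0.741 to 1.05 CPM in controls, so both markers were low in each library despite the label. Summed markers of smooth muscle were 213 to 244 CPM in co-culture and 333 CPM in each control library (1 rose and 3 fell of 7 tested). Acta2, Tagln and Cnn1 fell. Myocd rose, at 0.772 to 0.833 CPM in co-culture, against 0.109 to 0.124 CPM in controls, where each library had 2 counts (log2 fold change 2.75, edgeR adjusted p = 0.002). Lmod1 lay above all controls without passing the test, and Myh11 and Smtn did not pass either. Markers of airway epithelium summed to 8.02 to 9.49 CPM in co-culture and 18.8 to 26.8 CPM in controls (1 rose and 1 fell of 2 tested), where Krt18 stood at 4.17 to 4.91 CPM in co-culture and 15.8 to 24.1 CPM in controls and fell, while Muc1 rose, at 2.76 to 3.20 CPM in co-culture and 1.42 to 2.06 CPM in controls. Krt5, a defining marker of basal epithelial cells, had 0 counts in all 3 co-culture libraries and at most 2 in a control library. Leukocyte markers summed to 47.4 to 53.3 CPM in co-culture and 64.4 to 116 CPM in controls (1 fell of 5 tested), and neuron and Schwann cell markers to 8.77 to 8.90 CPM in co-culture and 5.13 to 6.83 CPM in controls (2 rose of 3 tested). Fibroblast markers summed to 1295 to 1362 CPM in co-culture and 1161 to 1213 CPM in controls, where of 4 tested Dpt rose, Col14a1 fell, and Pdgfra and Dcn did not pass. Pericyte markers summed to 370 to 417 CPM in co-culture and 377 to 475 CPM in controls, where of 4 tested Notch3 rose, Rgs5 fell and 2 did not pass. Endothelial markers summed to 2.37 to 3.59 CPM in co-culture and 2.16 to 3.14 CPM in controls (2 tested, neither past the threshold). In these bulk samples fewer cells of a type and less RNA per cell cannot be told apart, and the part of these markers in the Kcn results was not tested.

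Of the 78 Kcn genes, 33 had enough counts to be tested, and 10 of these were higher and 4 lower in co-culture at an adjusted p under 0.05 in edgeR's quasi-likelihood test. That is 42.42% of the tested Kcn genes. Over all 12936 tested genes 20.6% were called, with 10.3% higher and 10.3% lower. With scaling on library totals only, 68.11% of the calls over all genes were higher, against 50.06% as reported, and the Kcn calls were 12 higher and 3 lower. The genes that rose were Kcnn3, Kcnf1, Kcnj2, Kcnj8, Kcnq5, Kcnma1, Kcne4, Kcnt2, Kcnj15 and Kcnd1. Those that fell were Kcnn2, Kcnd3, Kcna1 and Kcnk6. The remaining 19 missed the threshold. The median log2 fold change of the 33 was 0.18, and that of all tested genes was -0.04. In 21 of the 33 (63.64%) the co-culture and control libraries did not overlap, 13 with co-culture above and 8 below, where 42.9% of all tested genes did not overlap. The filter asked for 0.551 counts per 1000000 of the library total, before TMM scaling, in at least 3 libraries, so some of the called genes reached the test through 1 group: Kcnn3, Kcnf1, Kcnj8 and Kcnma1 had 0 control libraries over it, Kcnn2 had 0 co-culture libraries over it and Kcna1 had 1. The shares of 42.42% and 63.64% include those 6 and so are tied to the filter. With no filter 78 Kcn genes were tested and 10 were higher and 4 lower, where 14% of all tested genes were called. Without co-culture library 1 the calls were 6 higher and 2 lower, without library 2 they were 7 and 2, and without library 3 they were 6 and 3, where 9.82%, 10.3% and 9.27% of all tested genes were called. Without control library 5 or 6 they were 8 higher and 2 lower, where 12.3% and 12.7% of all tested genes were called. Without control library 4 they were 13 and 5, and the share of all tested genes called was 38.6%.

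**Figure D1:**
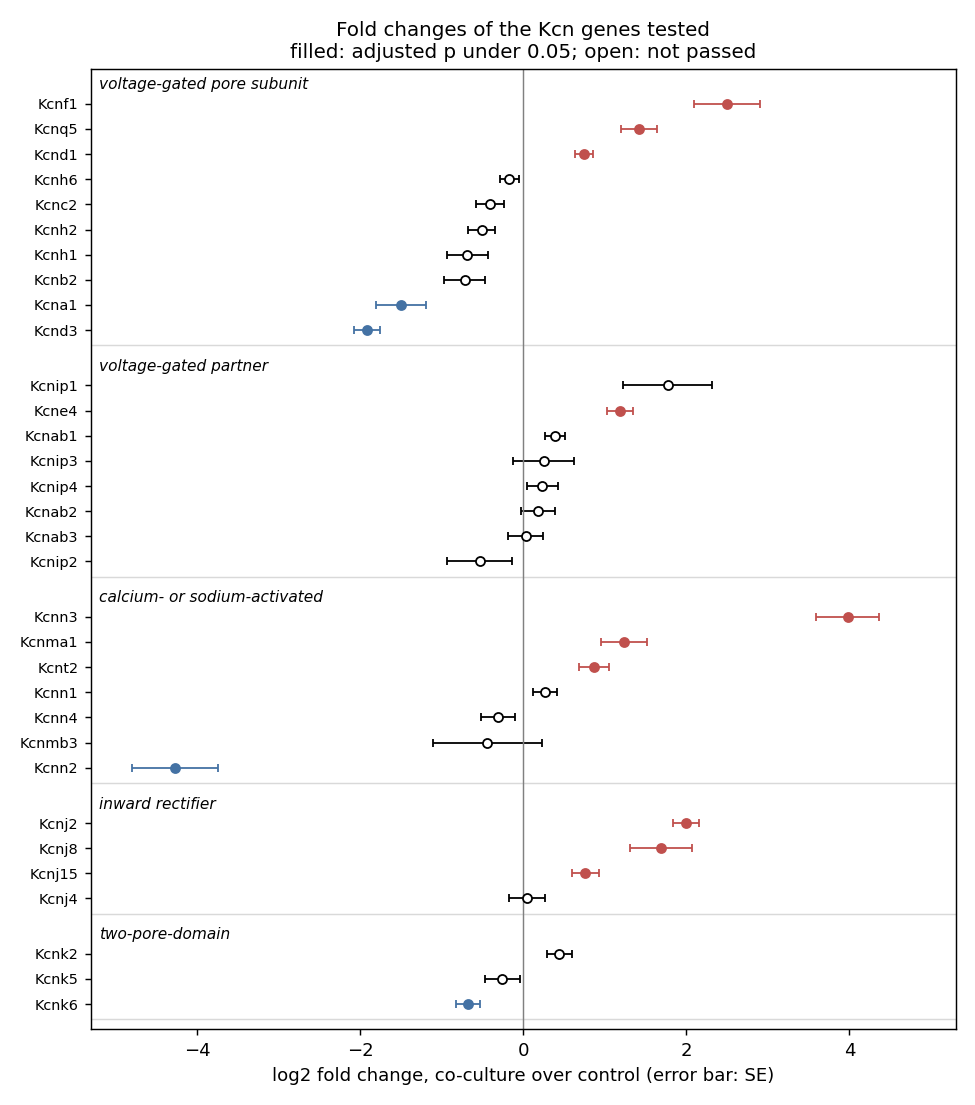
Log2 fold change (co-culture over control) of tested Kcn genes, arranged by channel family; points are edgeR estimates and bars are standard errors. Filled points mark the 10 genes that rose and the 4 that fell, and the largest differences are those of Kcnn3 (3.98) and Kcnn2 (-4.27).

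**Figure D2:**
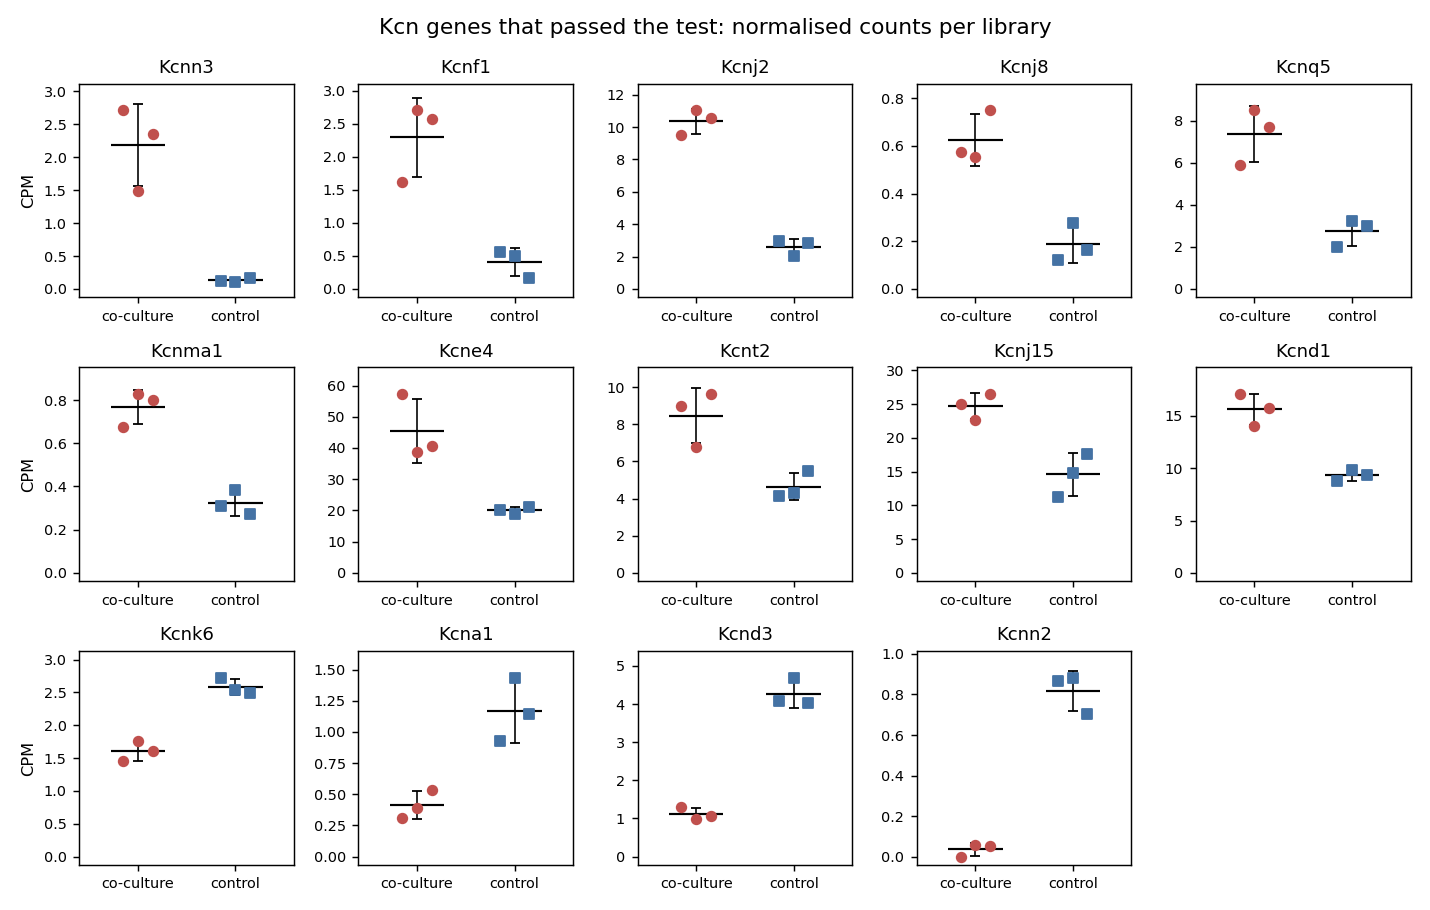
CPM of the 14 Kcn genes that passed the test, one point per library, with the mean as a horizontal line and the SD as a bar (n = 3 each). In each panel the co-culture libraries lie wholly above or wholly below the control libraries.

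Promoter windows from RefSeq (GRCm38.p6, 250 bases before to 50 bases after the transcription start) were used for 10 of the 14 called genes, as 11 windows. Those of Kcnn3, Kcnj2, Kcne4 and Kcnd3 are shown because these 4 genes had the lowest adjusted p among the 10. Both strands were searched for 8 short motifs, and bases inside a match are in capitals.
Kcnn3, chr3:89519914-89520213, plus strand: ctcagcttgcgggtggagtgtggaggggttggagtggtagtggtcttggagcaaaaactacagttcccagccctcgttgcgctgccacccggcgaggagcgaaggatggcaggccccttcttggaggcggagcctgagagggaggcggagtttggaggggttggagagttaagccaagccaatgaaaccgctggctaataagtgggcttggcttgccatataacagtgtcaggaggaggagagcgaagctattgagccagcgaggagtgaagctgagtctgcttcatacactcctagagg
Kcnj2, chr11:111065914-111066213, plus strand: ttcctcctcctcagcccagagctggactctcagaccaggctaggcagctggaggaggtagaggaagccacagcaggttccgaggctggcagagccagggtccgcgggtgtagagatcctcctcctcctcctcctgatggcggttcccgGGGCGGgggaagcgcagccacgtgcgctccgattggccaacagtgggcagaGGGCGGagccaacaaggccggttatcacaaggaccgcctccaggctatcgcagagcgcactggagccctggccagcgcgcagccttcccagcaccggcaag
Kcne4, chr1:78816661-78816960, plus strand: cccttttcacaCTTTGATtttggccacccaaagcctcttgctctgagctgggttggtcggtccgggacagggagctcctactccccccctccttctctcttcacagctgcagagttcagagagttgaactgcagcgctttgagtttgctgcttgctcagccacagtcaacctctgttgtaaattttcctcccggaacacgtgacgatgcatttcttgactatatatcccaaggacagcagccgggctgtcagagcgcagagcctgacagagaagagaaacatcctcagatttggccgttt
Kcnd3, chr3:105451640-105451939, plus strand: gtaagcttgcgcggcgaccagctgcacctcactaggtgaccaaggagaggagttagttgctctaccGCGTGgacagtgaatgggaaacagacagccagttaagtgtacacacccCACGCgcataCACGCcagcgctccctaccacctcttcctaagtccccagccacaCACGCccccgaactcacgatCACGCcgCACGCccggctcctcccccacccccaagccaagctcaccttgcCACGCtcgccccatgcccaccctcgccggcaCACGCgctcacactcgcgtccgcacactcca

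The Kcnn3 window held none of the 8 motifs. In the Kcnj2 window the capitals mark the GC box GGGCGG, which 2 of the 11 windows held (Kcnj2 and Kcnma1) and 35.7% of all 32851 windows held. The Kcne4 window held CTTTGAT, a core sequence of TCF/LEF factors, found in 1 of the 11 windows and 3.73% of all windows. The Kcnd3 window held GCGTG, the core that the aryl hydrocarbon receptor and hypoxia-inducible factors bind, as 8 matches; this core was in windows of 3 of the called genes (Kcnd3, Kcnj8 and Kcnq5) and in 32.4% of all windows. The box TATAAA was in 1 window, that of Kcnj15, and in 13.6% of all windows. The AP-1 site TGANTCA, the cyclic AMP response element TGACGTCA, the NF-kappaB site and the CArG box of serum response factor were in 0 of the 11 windows, against 7.81%, 1.79%, 8.46% and 1.63% of all windows. The GC content of the 4 printed windows was 57.67% for Kcnn3, 66.67% for Kcnj2, 52.67% for Kcne4 and 64.0% for Kcnd3, with a median of 52.67% over all windows. Each match describes letters in a window, not a bound site.

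Among the voltage-gated pore subunits, 34 genes in all and 11 tested, 3 rose (Kcnd1, Kcnq5 and Kcnf1), 2 fell (Kcnd3 and Kcna1) and 6 did not pass. The median log2 fold change of the 11 was -0.41, so the tested subunits lay more often below than above control, while their summed CPM was 65.2, 64.6 and 69.7 in co-culture and 59.9, 65.1 and 71.7 in controls. Kcnd1 and Kcnd3 encode 2 pores of the Kv4 subfamily, which carries fast, rapidly inactivating A-type current. Kcnd3 (gene ID 56543, GRCm38 chr3:105451890-105674002) had 1.30, 0.993 and 1.07 CPM in co-culture, against 4.08, 4.68 and 4.02 CPM in controls. All 3 co-culture libraries lay well below the lowest control. Its mean was 1.12 ± 0.161 CPM in co-culture, against 4.26 ± 0.366 CPM in controls (SD, n = 3 each), a log2 fold change of -1.92 ± 0.16 (SE; edgeR adjusted p = 0.00069). Kcnd1 (gene ID 16506, chrX:7823759-7838278) had 17.1, 14.1 and 15.7 CPM in co-culture, against 8.77, 9.85 and 9.34 CPM in controls, again with no overlap. It rose by 0.74 ± 0.11 on the log2 scale (SE; edgeR adjusted p = 0.00483). Per kb of gene length, Kcnd1 stood 25.4, 27.4 and 28.4 times as high as Kcnd3 in the co-culture libraries and 4.16, 4.07 and 4.49 times as high in the controls. The sum of both was 18.4, 15.1 and 16.8 CPM in co-culture, against 12.9, 14.5 and 13.4 CPM in controls.

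Kcnq5, a Kv7 subunit that forms the slow M-type current, lies at chr1:21398399-21962650 (gene ID 226922). It had 5.88, 8.49 and 7.70 CPM in co-culture, against 1.98, 3.25 and 2.99 CPM in controls, and the lowest co-culture library was above the highest control. The log2 fold change was 1.42 ± 0.22 (SE; edgeR adjusted p = 0.0067). Kcnf1 encodes a silent subunit, which forms no channel alone and modifies Kv2 channels (gene ID 382571, chr12:17172100-17176888). Its counts were 31, 49 and 48 in co-culture and 9, 9 and 3 in controls, or 2.29 ± 0.593 CPM in co-culture, against 0.405 ± 0.212 CPM in controls (SD, n = 3 each). The groups did not overlap, and the log2 fold change was 2.50 ± 0.40 (SE; edgeR adjusted p = 0.00734). The Kv2 pore Kcnb2 did not pass, and it had 2.45, 2.70 and 2.78 CPM in co-culture, against 6.12, 3.30 and 3.69 CPM in controls, of which library 4 was far above the others (edgeR adjusted p = 0.0927). Kcna1, a delayed-rectifier subunit of the Kv1 subfamily (gene ID 16485, chr6:126636463-126645801), had 0.312, 0.386 and 0.535 CPM in co-culture, against 0.927, 1.43 and 1.14 CPM in controls. It fell by 1.497 ± 0.304 on the log2 scale (SE; edgeR adjusted p = 0.0168), and the call ended on leaving out co-culture library 1 (0.0684) or 2 (0.0669) and without control library 5 (0.0557) or 6 (0.0508).

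The ether-a-go-go family gave no call. Kcnh6 had 24.1, 23.8 and 24.4 CPM in co-culture, against 24.0, 25.3 and 31.9 CPM in controls, so the groups overlapped at the second highest level per kb among the Kcn genes (log2 fold change -0.17 ± 0.12, SE; edgeR adjusted p = 0.348). Kcnh1, which is best known from the brain and from tumours, had 4.37, 2.92 and 4.38 CPM in co-culture, against 4.39, 6.66 and 7.71 CPM in controls (-0.69 ± 0.25, SE; edgeR adjusted p = 0.103). The co-culture libraries lay below all controls, only narrowly so for control library 4, and without control library 4 the difference was -0.88 and passed (edgeR adjusted p = 0.00181), as it did with voom and quality weights (-0.87, adjusted p = 0.00448). Kcnh2, the cardiac rapid delayed rectifier, had 2.08, 1.76 and 2.19 CPM in co-culture, against 3.21, 2.92 and 2.50 CPM in controls (edgeR adjusted p = 0.0756). Kcnc2, a fast-deactivating Kv3 subunit, had 1.46, 1.88 and 1.497 CPM in co-culture, against 2.29, 1.98 and 2.17 CPM in controls (edgeR adjusted p = 0.139). Both were below all controls without passing the test.

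Among the 12 accessory genes of voltage-gated channels, 8 were tested and 1 passed. That gene, Kcne4, encodes a single-span subunit that modulates Kv1 and Kv7 channels. It had the highest level per kb of all Kcn genes in every library. It lies at chr1:78816911-78820032 (gene ID 57814) and had 57.2, 38.7 and 40.6 CPM in co-culture, against 20.0, 18.9 and 21.1 CPM in controls. Co-culture library 1 was the highest, and all 3 co-culture libraries lay far above the controls. The log2 fold change was 1.19 ± 0.16 (SE; edgeR adjusted p = 0.00379). Kcne4 alone gave 27.0%, 20.3% and 19.8% of all Kcn CPM in co-culture and 14.6%, 12.9% and 13.4% in controls. The summed CPM of the whole family was 203 ± 11.1 in co-culture and 147 ± 9.78 in controls (SD, n = 3 each), and without Kcne4 it was 155, 152 and 165 in co-culture and 117, 128 and 136 in controls.

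Of the other 7 accessory genes tested, which include the beta subunits of Kv1 channels (Kcnab genes) and the Kv channel-interacting proteins that bind Kv4 (Kcnip genes), 6 had positive and 1 had negative fold changes, without passing in edgeR. Kcnab1 came nearest, with 9.79, 7.89 and 8.501 CPM in co-culture, against 7.04, 6.33 and 6.63 CPM in controls. Its groups did not overlap, and the log2 fold change was 0.39 ± 0.12 (SE; edgeR adjusted p = 0.0596), or adjusted p = 0.0207 without control library 4, 0.0333 with library totals only and 0.0214 with voom and quality weights. Kcnip1 had 1.46, 1.49 and 1.55 CPM in co-culture, against 0.124, 0.936 and 0.217 CPM in controls. Control library 5 lay between the other controls and the co-culture libraries, and the log2 fold change was 1.77 ± 0.54 (SE; edgeR adjusted p = 0.0632), against 3.06 with an edgeR adjusted p of 0.0056 when that library was left out, and 1.37 with an edgeR adjusted p of 0.0229 without control library 4. Kcnip1 also passed with DESeq2 (1.81, adjusted p = 0.0342) and with voom and quality weights (adjusted p = 0.0121). The other 5 (Kcnip2, Kcnip3, Kcnip4, Kcnab2 and Kcnab3) had edgeR adjusted p of 0.383 to 0.956.

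Of the 11 calcium- or sodium-activated channel genes, 7 were tested, 3 rose, 1 fell and 3 did not pass. The small-conductance calcium-activated channels, opened by calcium bound to calmodulin and blind to voltage, showed the largest differences of the family. Kcnn3 (gene ID 140493, chr3:89520164-89672494) had 52, 27 and 44 counts in co-culture and 2, 2 and 3 in controls, or 2.71, 1.49 and 2.35 CPM in co-culture, against 0.124, 0.110 and 0.163 CPM in controls. The lowest co-culture library was several times the highest control. The log2 fold change was 3.98 ± 0.39 (SE; edgeR adjusted p = 0.00118), and the summed counts of 123 in co-culture and 7 in controls gave a ratio of 16.5 (95% exact interval 7.79 to 42.0, covering counting error only). Kcnn2 (gene ID 140492) went the other way, with 0, 1 and 1 counts in co-culture and 14, 16 and 13 in controls. The ratio of summed counts, 2 in co-culture and 43 in controls, was 0.0438 (interval 0.0051 to 0.168), and the log2 fold change was -4.27 ± 0.53 (SE; edgeR adjusted p = 0.00269). Kcnn1, at a higher level than both, had 6.98, 7.39 and 6.04 CPM in co-culture, against 4.70, 6.22 and 5.97 CPM in controls, without passing the test (edgeR adjusted p = 0.242). Neither did the intermediate-conductance channel Kcnn4, the pore that proliferating cells of several tissues are known to use, with 2.29, 3.92 and 3.48 CPM in co-culture, against 4.32, 3.74 and 3.96 CPM in controls (edgeR adjusted p = 0.326). Kcnn3 made up 22.6%, 11.6% and 19.7% of the counts of Kcnn1 to Kcnn4 in co-culture and 1.23%, 1.01% and 1.51% in controls. The 4 genes together stood at 11.98, 12.85 and 11.92 CPM in co-culture, against 10.01, 10.96 and 10.81 CPM in controls.

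Kcnt2, a sodium-activated channel, and Kcnma1, the large-conductance channel gated by calcium and voltage, both rose. Kcnt2 (gene ID 240776, chr1:140245657-140614045) had 9.01, 6.78 and 9.62 CPM in co-culture, against 4.14, 4.29 and 5.49 CPM in controls. The groups did not overlap, with a log2 fold change of 0.87 ± 0.18 (SE; edgeR adjusted p = 0.018). The call ended on leaving out co-culture library 1 (0.071), co-culture library 3 (0.0738) or control library 5 (0.0614). Kcnma1 (gene ID 16531, chr14:23292288-24005110) had only 13, 15 and 15 counts in co-culture and 5, 7 and 5 in controls. The groups were separate, and the log2 fold change was 1.24 ± 0.28 (SE; edgeR adjusted p = 0.0242), with a level per kb of 0.119 in co-culture and 0.0498 in controls, the lowest mean over the 6 libraries among tested genes with a derived length. The call ended with DESeq2 (adjusted p = 0.148) and on leaving out each co-culture library (edgeR adjusted p = 0.0598, 0.0836 and 0.0837) or control library 5 (0.0518) or 6 (0.0813). Its smooth muscle partner Kcnmb1, a subunit that raises calcium sensitivity, had 1, 1 and 0 counts in co-culture and 0, 2 and 0 in controls, and Kcnmb4 had 7, 6 and 4 in co-culture and 7, 5 and 7 in controls, so neither was tested. Kcnmb3, another accessory subunit of this channel, had 0.625, 0.607 and 0.0535 CPM in co-culture, against 0.371, 0.495 and 0.869 CPM in controls, with overlap (edgeR adjusted p = 0.667).

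Of the 12 inward rectifier genes, which include Kcnj2 at the lowest adjusted p of all Kcn genes, 4 were tested, 3 rose and 1 did not pass, and their median log2 fold change was 1.22. Their summed CPM was 37.8, 36.1 and 40.8 in co-culture and 16.2, 20.0 and 22.5 in controls. Kcnj2 encodes the strong rectifier that clamps the resting potential of muscle (gene ID 16518, chr11:111066164-111076825). It had 9.53, 11.03 and 10.53 CPM in co-culture, against 2.97, 2.04 and 2.82 CPM in controls. The co-culture libraries stood in a tight band well above the controls, at 3.97 times their level (log2 fold change 1.99 ± 0.16, SE; edgeR adjusted p = 0.000536). In the order of levels per kb, Kcnj2 ranked 8, 8 and 7 in co-culture and 16, 21 and 15 in controls. Kcnj15, another rectifier, best known from kidney (gene ID 16516, chr16:95257558-95300260), had 25.0, 22.7 and 26.5 CPM in co-culture, against 11.2, 14.9 and 17.6 CPM in controls. The 3 controls spread widely but stayed under the co-culture range, and the log2 fold change was 0.76 ± 0.17 (SE; edgeR adjusted p = 0.0217). The call ended on leaving out co-culture library 1, 2 or 3 (0.0776, 0.0569 and 0.0875) and without control library 5 (0.0613). Kcnj8, the pore of the ATP-sensitive channel of vascular smooth muscle (gene ID 16523, chr6:142564837-142571614), had 11, 10 and 14 counts in co-culture and 2, 5 and 3 in controls. It rose by 1.69 ± 0.38 on the log2 scale (SE; edgeR adjusted p = 0.0246) at these low counts, and the call ended with DESeq2 (adjusted p = 0.0938), without each co-culture library in turn (0.0702, 0.0633 and 0.0879) and with control library 6 left out (0.078). Kcnj4 had 1.98, 1.43 and 1.98 CPM in co-culture, against 1.61, 2.15 and 1.47 CPM in controls (edgeR adjusted p = 0.899). The other ATP-sensitive pore, Kcnj11, had 0, 0 and 0 counts in co-culture and 0, 1 and 0 in controls.

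Of 9 two-pore-domain channels, 3 were tested, of which 1 fell and 2 did not pass. Kcnk6, a weakly rectifying leak channel (gene ID 52150, chr7:29221928-29232522), had 1.46, 1.76 and 1.604 CPM in co-culture, against 2.72, 2.53 and 2.50 CPM in controls, without overlap, and fell by 0.68 ± 0.15 on the log2 scale (SE; edgeR adjusted p = 0.0222). The call ended with scaling on library totals only (0.0552), with DESeq2 (0.129), and when each co-culture library (0.0849, 0.0532 and 0.0825) or control library 5 (0.0629) or 6 (0.0661) was left out. Kcnk2, a channel opened by stretch and lipids, had 5.83, 4.69 and 5.40 CPM in co-culture, against 4.57, 3.63 and 3.53 CPM in controls (log2 fold change 0.44 ± 0.15, SE; edgeR adjusted p = 0.0866). Its libraries were separate by a small margin, and the adjusted p was 0.0128 without control library 4, 0.0357 with library totals only and 0.0138 with voom and quality weights. Kcnk5 had 1.146, 1.32 and 1.71 CPM in co-culture, against 1.67, 1.87 and 1.47 CPM in controls, and the groups overlapped (edgeR adjusted p = 0.427). The family summed to 8.96, 8.11 and 9.20 CPM in co-culture, against 9.33, 8.48 and 7.93 CPM in controls.

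Ordered by level per kb of gene length, Kcne4 was first in every library, with 20.4 ± 4.57 CPM per kb in co-culture, against 8.97 ± 0.479 CPM per kb in controls (SD, n = 3 each). Kcnh6 was next in every library, with 7.12 ± 0.0978 CPM per kb in co-culture, against 7.999 ± 1.24 CPM per kb in controls. In co-culture these neighbours were far apart, while in controls they overlapped, at 8.49 to 9.45 CPM per kb for Kcne4 and 7.10 to 9.42 CPM per kb for Kcnh6. Kcnj15 (5.22 ± 0.404 CPM per kb in co-culture, 3.08 ± 0.678 CPM per kb in controls) and Kcnd1 (4.42 ± 0.427 CPM per kb in co-culture, 2.64 ± 0.153 CPM per kb in controls) came next, and their ranges overlapped in both groups. Kcnab1, Kcnn1, Kcnn4 and Kcnk2 followed, at 3.06, 2.60, 1.83 and 1.70 CPM per kb in co-culture, against 2.33, 2.15, 2.27 and 1.25 CPM per kb in controls. Kcna1, Kcnmb3 and Kcnn2 have no value on this scale, because their deposited FPKM was too low to derive a length.

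**Figure D3:**
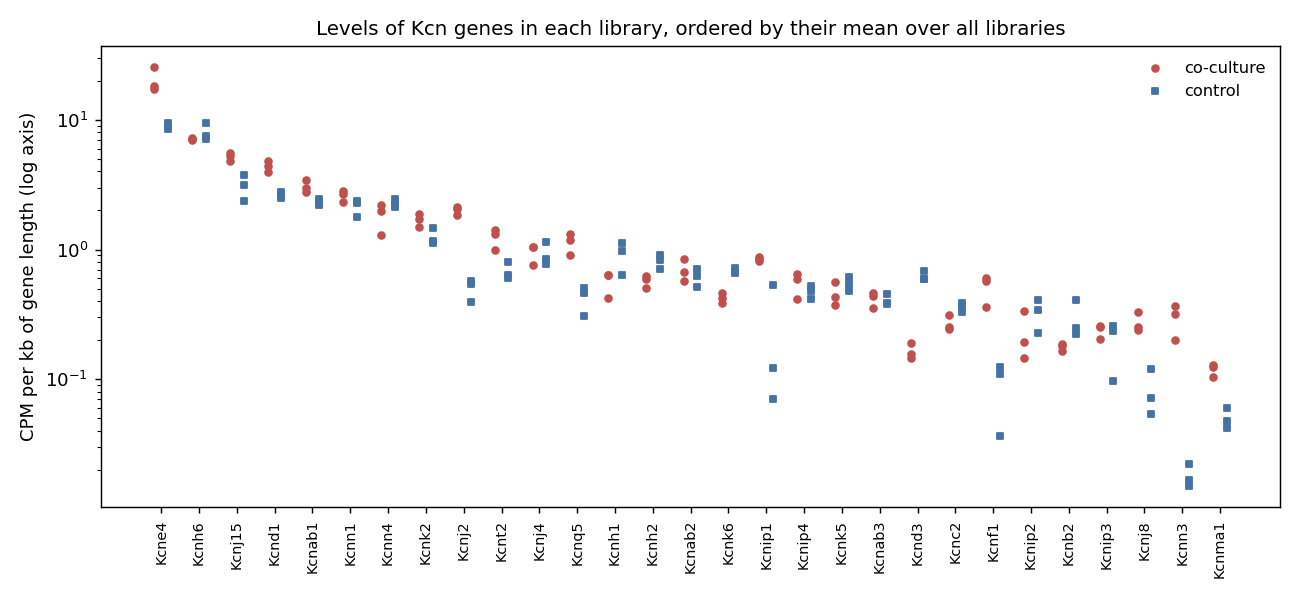
CPM per kb of gene length in each library on a log axis, for tested Kcn genes with a derived length, ordered by their mean over all 6 libraries. Kcne4 leads in each library, and the spread between groups is widest for Kcnn3 at the low end.

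At the level of transcripts, 203 rows belonged to Kcn genes and 52 were tested. edgeR called 3 of them higher and 0 lower, where 1.91% of all 33858 tested transcripts were called, 0.963% higher and 0.942% lower. On leaving out each library in turn, edgeR called 1 higher without control library 4 and 0 in the other 5 fits. At an unadjusted p under 0.05 there were 11 higher and 3 lower of the 52, where 6.49% of all tested transcripts were higher and 7.3% lower. DESeq2 called 8 higher and 2 lower of 79 with an adjusted p, where it called 2.65% of all transcripts higher and 2.68% lower. The 3 were the transcripts of Kcne4 (log2 fold change 1.19, edgeR adjusted p = 0.0376), Kcnj2 (1.99, edgeR adjusted p = 0.0195) and Kcnn3 (3.98, edgeR adjusted p = 0.0384). Kcnk2, which did not pass as a gene, held a pair of transcripts with opposite values. One had 0, 2.75 and 0 estimated counts in co-culture and 20.3, 57.3 and 33.8 in controls (-5.08, edgeR adjusted p = 0.188; -5.25 with DESeq2, adjusted p = 0.0065). The other had 56.9, 17.7 and 32.9 in co-culture and 0, 2.98 and 0 in controls (4.94, edgeR adjusted p = 0.201; 5.10 with DESeq2, adjusted p = 0.0119). The groups did not overlap for either transcript, as for 24.8% of all tested transcripts, and the calls of the 2 tools differ. These counts are estimates, and how reads were divided between transcripts of 1 gene was not given.

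Genes that work with these channels were taken as 2 lists. Of 22 channel partners (scaffolds and accessory proteins outside the Kcn symbols), 19 were in the table and 11 were tested. Of those 11, 2 rose, 1 fell and 8 did not pass, with a median log2 fold change of 0.12. The share called was 27.27%, where 20.6% of all tested genes were called. Lingo1, a protein known from human brain to bind the large-conductance channel, had 9.37, 9.87 and 8.66 CPM in co-culture, against 16.2, 19.1 and 18.9 CPM in controls, wholly separate (-0.96, edgeR adjusted p = 0.00169). Dlg1, a scaffold that clusters Kv1 and Kir2 channels, had 243, 243 and 243 CPM in co-culture, against 169, 184 and 200 CPM in controls (0.40, edgeR adjusted p = 0.0139), and Amigo2, of the family that accompanies Kv2 channels, had 4.37, 4.80 and 4.54 CPM in co-culture, against 2.29, 3.25 and 2.99 CPM in controls (0.68, edgeR adjusted p = 0.0255). Those 2 rises were less steady than the fall of Lingo1, which passed in every alternative fit. The call of Dlg1 ended on leaving out each of the co-culture libraries (edgeR adjusted p = 0.0595, 0.06 and 0.0648) or control library 5 (0.0513), and that of Amigo2 on leaving out co-culture library 1, 2 or 3 (0.0732, 0.0915 and 0.0875) or control library 6 (0.0629). Abcc9, the sulphonylurea receptor that joins Kcnj8, was too low to test, with 0.364, 0.496 and 0.481 CPM in co-culture, against 0.124, 0.0551 and 0.326 CPM in controls.

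Of 21 potassium pumps, cotransporters and their regulators, 19 were tested, 2 rose, 3 fell and 14 did not pass, with a median log2 fold change of -0.21. The share called was 26.32%, against 20.6% of all tested genes. Slc12a2, which carries sodium, potassium and chloride into the cell, had 76.9, 86.4 and 89.3 CPM in co-culture, against 134, 135 and 133 CPM in controls, without overlap (-0.67, edgeR adjusted p = 0.00165). Its activating kinase Stk39 also fell (-0.39, edgeR adjusted p = 0.0142). Slc12a7, which carries potassium and chloride out, had 27.1, 30.5 and 27.1 CPM in co-culture, against 19.2, 22.6 and 20.6 CPM in controls (0.44, edgeR adjusted p = 0.0211). The pump regulator Fxyd6 had 1.30, 1.16 and 1.18 CPM in co-culture, against 0.680, 0.661 and 0.597 CPM in controls (0.90, edgeR adjusted p = 0.0227). Slc12a2 passed in every alternative fit. Calls ended for Stk39 on leaving out co-culture library 2 or 3 or control library 6 (edgeR adjusted p = 0.059, 0.072 and 0.0575) and with scaling on library totals only (0.0906), and for Slc12a7 on leaving out co-culture library 1, 2 or 3, or else control library 6 (0.0617, 0.0833, 0.0665 and 0.0664). The call of Fxyd6 ended with DESeq2 (0.165) and without any 1 library other than control library 4 (edgeR adjusted p = 0.0658 to 0.0861).

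The other 45 Kcn genes did not pass the count filter and were not tested in the fit as reported. Of these, 27 had 0 to 3 counts in every library after rounding, 15 had a highest count of 4 to 10, and 3 went higher, up to 17 counts. They included genes named because they are known from airway smooth muscle. Among them, Kcna5 had 3, 0 and 0 counts in co-culture and 0, 0 and 0 in controls. Kcna2 had 1, 1 and 3 in co-culture and 3, 5 and 6 in controls. With no filter all 78 Kcn genes were tested, and the genes called were the same 14 as reported. Kcna3, which lymphocytes use, had 1, 5 and 8 counts in co-culture and 0, 2 and 1 in controls, and the leak channel Kcnk1 had 0, 0 and 0 in co-culture and 0, 0 and 1 in controls. Kcnk3 and Kcnq1 were not analysed here.

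Calls of the Kcn genes differed in how they held when 1 library or 1 step was changed. Kcnd1, Kcnd3, Kcne4, Kcnf1, Kcnj2, Kcnn2, Kcnn3 and Kcnq5 passed in all 11 alternative fits. The other 6 (Kcna1, Kcnj15, Kcnj8, Kcnt2, Kcnk6 and Kcnma1) missed the threshold in at least 1, and 0 of the 14 changed sign. Without control library 4, which stood apart, all 14 calls were kept. Some called genes also overlap other genes in the GENCODE annotation of GRCm38: noncoding genes lie across Kcne4, Kcnj15, Kcnma1, Kcnn2, Kcnq5, Kcnt2 and Kcnd3. Among them, Kcnd3 has only a same-strand partner, and Kcnq5 and Kcnt2 have partners on both strands. Whether the counting used strand was not given, so reads of an opposite-strand partner cannot be told apart from those of the called gene. Strand would not separate the reads of a same-strand partner in any case. Kcna1, Kcnd1, Kcnf1, Kcnj2, Kcnj8, Kcnk6 and Kcnn3 overlap no annotated gene.

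**Figure D4:**
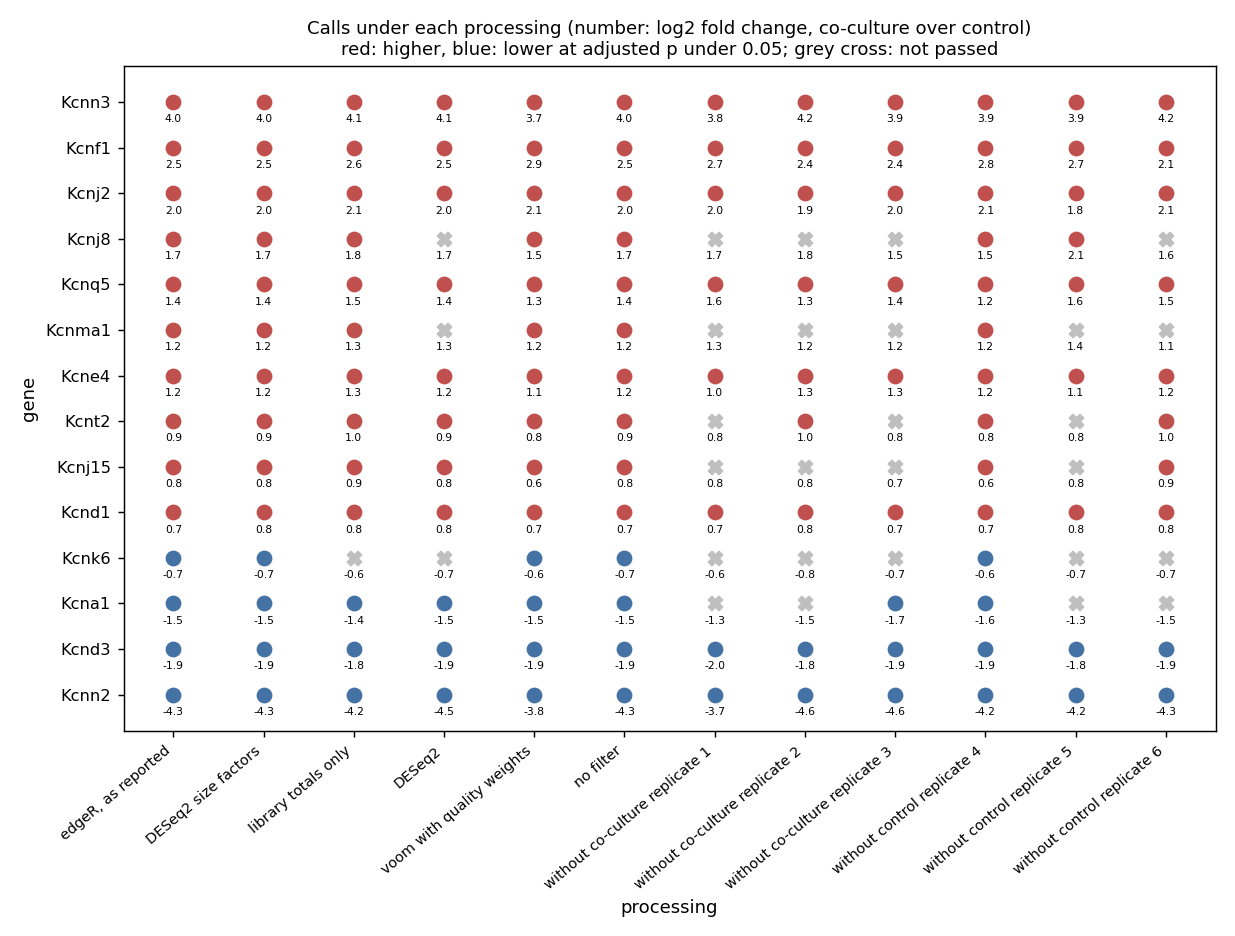
Calls of the 14 Kcn genes (rows) in the fit as reported and in the 11 alternative fits (columns); red circles were higher and blue circles lower in co-culture at an adjusted p under 0.05, grey crosses did not pass, and the printed number is the log2 fold change. Kcnn3, Kcnf1, Kcnj2, Kcnq5, Kcne4, Kcnd1, Kcnd3 and Kcnn2 have a circle in every column, and no gene changes sign.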

How the data were processed

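RNA of 3 co-culture and 3 control samples of mouse airway smooth muscle cells was sequenced. HISAT was the aligner, per the labels' protocols, and the genome build was mm10, per the submitters' processing notes. Strandedness, kit, annotation and counting program: none is given in the sources used here. The authors deposited estimated counts per gene and per RefSeq transcript, not scaled between libraries, and FPKM values per gene, of which the co-culture columns were used only to derive gene lengths (where they summed to at least 0.3). The 21 other per-sample columns were not used.

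Estimated counts were rounded and tested with edgeR 4.0.16 in R 4.3.3: filterByExpr, TMM factors, quasi-likelihood F-test, two-sided, Benjamini-Hochberg over all 12936 genes (or 33858 transcripts), called at an adjusted p under 0.05. The SE was taken as the absolute log2 fold change over root F. CPM is the count per 1000000 of the library total times its TMM factor. Intervals of count ratios are exact at 95% and cover counting error only. Depth was 17496056 to 18496623 counts per library. The script was tested on simulated counts. Alternatives were DESeq2 1.42.0, its size factors, library totals, limma 3.58.1 voom with quality weights, no filter, and leaving out each library. RefSeq (GRCm38.p6) gave coordinates and promoter windows. All Kcn genes called, separated between groups, among the highest levels per kb, called in a leave-one-out fit or known from airway smooth muscle are named, except some whose results are not reported here; levels per kb replaced FPKM in that rule because control FPKM was not used. Members and gene lists were chosen with earlier results of these data known.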

Additional observations from a re-analysis of the deposited data

How the results depend on the processing

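The Kcn calls as reported were 10 higher and 4 lower. They were 10 and 4 with DESeq2 size factors, 12 and 3 with library totals only, 9 and 3 with DESeq2, 13 and 5 with voom and quality weights, and 10 and 4 with no filter. Of all tested genes, 20.6% were called as reported, 19.4% with DESeq2 size factors, 16.4% with library totals only and 16% with DESeq2. The share was 36.2% with voom and quality weights and 14% with no filter. The Kcn genes tested were 33 as reported, 41 with DESeq2 and 78 with no filter. Leaving out each library gave 6 to 13 Kcn genes higher and 2 to 5 lower, where 9.27% to 38.6% of all tested genes were called. The highest counts came without control replicate 4. Over all genes, 1333 were higher and 1330 lower as reported, 2201 and 2488 with voom and quality weights, and 612 to 2445 higher and 598 to 2598 lower with 1 library left out. Library totals only gave 1444 higher and 676 lower, so 68.11% of the calls were higher, against 50.06% as reported, and the median of all genes moved by 0.11 on the log2 scale. Of partners and transporters, 0 to 5 were higher and 2 to 9 lower with 1 library left out, and 8 were lower with voom. Of Kcn transcripts, DESeq2 called 8 higher and 2 lower, and leaving out 1 library gave 0 to 1 higher. Where a call changed, the cause was not tested. No paired analysis was possible because the labels give no batch, animal or culture that would pair a co-culture sample with a control. Besides, the control columns are numbered 4 to 6 while the labels number the control samples 1 to 3. No control column could therefore be tied to a single control sample. Depth limits Kcnn2, Kcnj8 and Kcnma1, which had 16 or fewer counts in each library, and the genes that were not tested.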
